A study of Mus musculus with 8 samples.

Results

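The genes described here were those whose signal was lower in every AP20187-treated mouse liver than in every untreated one. They were selected on the deposited ratios themselves. Among probe sets naming 1 gene with a row median of at least 0.99, the lowest log2(ratio + 0.1) of the 4 untreated arrays minus the highest of the 4 treated arrays was taken as a score, and the 100 highest scores were kept. Apoa2, Irs2, Thrsp, Cyp8b1 and other numbered Cyp genes were left out by name. The 100 member probe sets stood for 97 genes, out of 12488 probe sets on the array and 9425 that met the criteria. Since the difference between treated and untreated arrays chose the members, it is given below as a description and without a test.

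PERK is a kinase of the endoplasmic reticulum membrane that phosphorylates the translation factor eIF2 under protein folding stress. Phosphorylated eIF2 slows translation of most messages and favours that of Atf4, whose product is a transcription factor that raises genes of amino acid supply and stress defence. This is the integrated stress response, which in liver is known for its bearing on amino acid and lipid metabolism and on the load of secreted proteins.

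All mice carried Ttr::Fv2E-Perk from a single low-expressing line, number 58. This transgene places a PERK kinase fused to a dimerization domain under a transthyretin promoter, and the drug AP20187 joins 2 such molecules and so switches the kinase on. Livers came from Atf4+/+ and Atf4-/- siblings on a mixed FvB/n; Swiss Webster background, either untreated, which the series title calls mock-injected, or treated with AP20187. Total RNA was measured on 8 arrays, 2 in each of the 4 groups, namely untreated Atf4+/+, untreated Atf4-/-, treated Atf4+/+ and treated Atf4-/-. Sex, age, dose and time are not given in the sources used here, nor is it said that the 2 arrays of each group stand for different mice, so that a p-value here covers only the spread between arrays, which may be technical.

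Atf4 itself was looked at before any other gene, since it tests the genotype labels. In the order untreated Atf4+/+, untreated Atf4-/-, treated Atf4+/+ and treated Atf4-/-, with replicates 1 and 2 of each, the Atf4 ratios were 2.36 and 0.30, 0.29 and 1.67, 4.17 and 5.75, and 0.25 and 0.33. The treated arrays lay as labelled, whereas untreated Atf4+/+ replicate 2 was as low as a knockout and untreated Atf4-/- replicate 2 was not. The labels of untreated Atf4-/- replicate 1 also disagree with each other on its genotype. Whether the probes lie in the deleted part of Atf4 was not tested, so groups are named below by their labels and every untreated genotype comparison carries this doubt. Eif2ak3, the endogenous PERK gene, read 0.85, 1.09, 1.45 and 0.61 on the untreated arrays and 0.99, 1.37, 0.98 and 1.01 on the treated ones, so that the groups overlapped. Each value is a ratio to the probe set's own median over the arrays, so levels cannot be compared between genes and no tissue marker can be read as present or absent. In bulk liver RNA, fewer cells of a type and less RNA per cell cannot be told apart.

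The member count was set by the rule, and the background was as follows. Of the 9425 probe sets, 394 had every treated array below every untreated one, which is 4.18%, and 466 had every treated array above, which is 4.94%. Of those not left out by name, 391 were lower without overlap, and the 100 members were the ones with the widest gap. Cyp4b1, Thrsp and Apoa2 would have been members had they not been left out by name. Scores ran from 0.18 to 0.95 with a median of 0.29. At the lower end 16 probe sets shared one score, 14 of them inside and 2 outside. The last inside were Cbx5, Bgn and Rnf145 and the first outside were F13b and Hdac7, all with a score of 0.18, followed by Tmem9b with 0.17. The edge of the group is therefore arbitrary, since the ratios were deposited in steps of 0.01.

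More than 1 probe set was on the array for 38 of the 97 member genes. In 8 of these, every probe set naming 1 gene was lower in all treated arrays. Promoter windows, from 250 bases before to 50 after the gene start in RefSeq on build GRCm38.p6, are shown for 4 of the 8. Eif4ebp2, the eIF4E-binding protein that holds back cap-dependent translation, lies at chr10:61452620-61452919 on the minus strand with 3 such probe sets. Cxcl12, a stromal chemokine, lies at chr6:117168285-117168584 on the plus strand with 3. S100a13, a calcium-binding protein, lies at chr3:90514185-90514484 on the plus strand with 4. Vamp8, a vesicle fusion protein, lies at chr6:72390618-72390917 on the minus strand with 2. Bases are written 5′ to 3′ in the direction of the gene, and capitals mark matches on either strand to any of the motifs searched.
Eif4ebp2: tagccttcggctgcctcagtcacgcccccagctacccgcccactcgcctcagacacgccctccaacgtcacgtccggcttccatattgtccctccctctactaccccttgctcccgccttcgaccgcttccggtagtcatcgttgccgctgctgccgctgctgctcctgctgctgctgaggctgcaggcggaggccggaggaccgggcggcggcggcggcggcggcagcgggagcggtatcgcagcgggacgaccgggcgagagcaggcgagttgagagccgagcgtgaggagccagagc
Cxcl12: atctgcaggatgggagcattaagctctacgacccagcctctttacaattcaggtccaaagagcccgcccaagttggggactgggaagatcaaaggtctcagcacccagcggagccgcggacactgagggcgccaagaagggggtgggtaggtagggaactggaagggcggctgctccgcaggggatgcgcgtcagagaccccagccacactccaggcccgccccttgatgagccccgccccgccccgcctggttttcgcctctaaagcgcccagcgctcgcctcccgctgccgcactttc
S100a13: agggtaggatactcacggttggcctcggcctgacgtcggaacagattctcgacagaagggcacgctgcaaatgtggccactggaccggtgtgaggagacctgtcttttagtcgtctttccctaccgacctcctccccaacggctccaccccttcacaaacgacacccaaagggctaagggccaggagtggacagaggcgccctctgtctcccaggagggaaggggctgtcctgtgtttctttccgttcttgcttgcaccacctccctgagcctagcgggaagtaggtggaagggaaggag
Vamp8: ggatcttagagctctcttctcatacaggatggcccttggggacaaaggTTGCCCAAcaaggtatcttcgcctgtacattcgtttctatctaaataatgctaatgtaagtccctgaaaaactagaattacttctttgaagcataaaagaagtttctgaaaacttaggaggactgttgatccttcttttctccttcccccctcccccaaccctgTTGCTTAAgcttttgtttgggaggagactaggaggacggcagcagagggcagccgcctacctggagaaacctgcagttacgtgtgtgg
Vamp8 held 2 matches to TTGCNNAA, a form of the C/EBP site, and the other 3 windows shown held no match to the letters searched. Of the 4 genes not shown, Ghr held TATAAA in 1 of its 2 windows and Ubl5 held AGGTCA in 1 of its 4. Bgn and Sec14l2 held no match. Windows were found for 81 of the 97 member genes, 28 of which had more than 1, and for 6001 genes on the array. Motifs were counted in the first window listed for each gene. The nuclear receptor motif AGGTCA was in 13.6% of the 81 member genes and 12.9% of the 6001, and a direct repeat of it with 1 base between the copies was in 0 member genes and 1 of the 6001. TTGCNNAA was in 7.41% against 9.20%, and the composite C/EBP-ATF form TGATGNAA was in 1.23%, the gene Cd59b alone, against 2.32%. The HNF1 form GTTAAT was in 3.70% against 4.77%, the forkhead form TGTTTAC in 4.94% against 2.60%, the E-box CACGTG in 8.64% against 603 of the 6001 genes, and TATAAA in 7.41% against 9.80%. With every window of a gene counted, AGGTCA was in 19.8% against 16.2%, GTTAAT in 7.41% against 6.07%, TATAAA in 12.3% against 11.6% and TTGCNNAA in 8.64% against 11.3%. Counted in the same way, TGTTTAC was in 6.17% against 3.27%, CACGTG in 9.88% against 11.5% and TGATGNAA in 1.23% against 2.87%. These shares are a description of the windows, and the 2 groups of promoters had the same median GC content of 60.3%.

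By the rule the treated and untreated arrays of a member never overlap, so what is described below is how far apart they lay and how they spread. The widest gap belonged to Rnf220, an E3 ubiquitin ligase. In the order given above for Atf4, its ratios were 1.70, 1.35, 1.76 and 1.40 untreated and 0.55, 0.61, 0.50 and 0.65 treated, or 1.55 ± 0.207 against 0.578 ± 0.0660 (SD, n = 4). It was the 1 member that was at least 2-fold lower in every treated array than in every untreated array. Glrx, the glutaredoxin that removes glutathione from protein thiols, read 1.25, 1.30, 1.28 and 1.51 untreated and 0.73, 0.54, 0.75 and 0.75 treated. Treated Atf4+/+ replicate 2 lay below the other treated arrays and untreated Atf4-/- replicate 2 above the other untreated ones, while the rest lay close together. Casp9, the initiator caspase of the mitochondrial death pathway, read 1.38, 1.23, 1.22 and 1.35 untreated and 0.77, 0.28, 0.78 and 0.38 treated. Treated Atf4+/+ replicate 2 and treated Atf4-/- replicate 2 were the low arrays for this gene. Their common number does not pair them, since the labels give no shared replicate numbers.

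Hnf4g, a nuclear receptor close to the hepatocyte regulator HNF4A, read 2.39, 1.43, 1.88 and 1.22 untreated and 0.51, 0.49, 0.70 and 0.78 treated. Both treated Atf4+/+ arrays were below both treated Atf4-/- arrays. Upp2, a uridine phosphorylase of liver, read 1.26, 3.03, 1.22 and 1.91 untreated and 0.45, 0.24, 0.70 and 0.78 treated, with the same order of genotypes among the treated. Pdxk, the kinase that makes the active form of vitamin B6, read 2.58, 1.21, 1.33 and 1.60 untreated and 0.50, 0.25, 0.16 and 0.79 treated. It had the lowest pooled log2 difference of all members, -1.86, and its untreated mean ratio was 3.95 times its treated one.

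The other 6 of the 12 widest gaps were Slc1a6, a glutamate transporter, H2-Q1, a class I histocompatibility gene, Clcn1, a chloride channel known from muscle, Cd59b, an inhibitor of the complement attack complex, Mfap4, a microfibril protein, and Larp7, which binds the 7SK RNA. Their untreated mean ratios were 1.81, 1.38, 1.72, 1.24, 1.40 and 1.26 in that order, and their treated means were 0.622, 0.632, 0.665, 0.665, 0.580 and 0.505. H2-Q1 belongs to a family of near-identical genes, and Cd59b and the member Cd59a are close copies, so their probe sets may share signal.

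**Figure D1:**
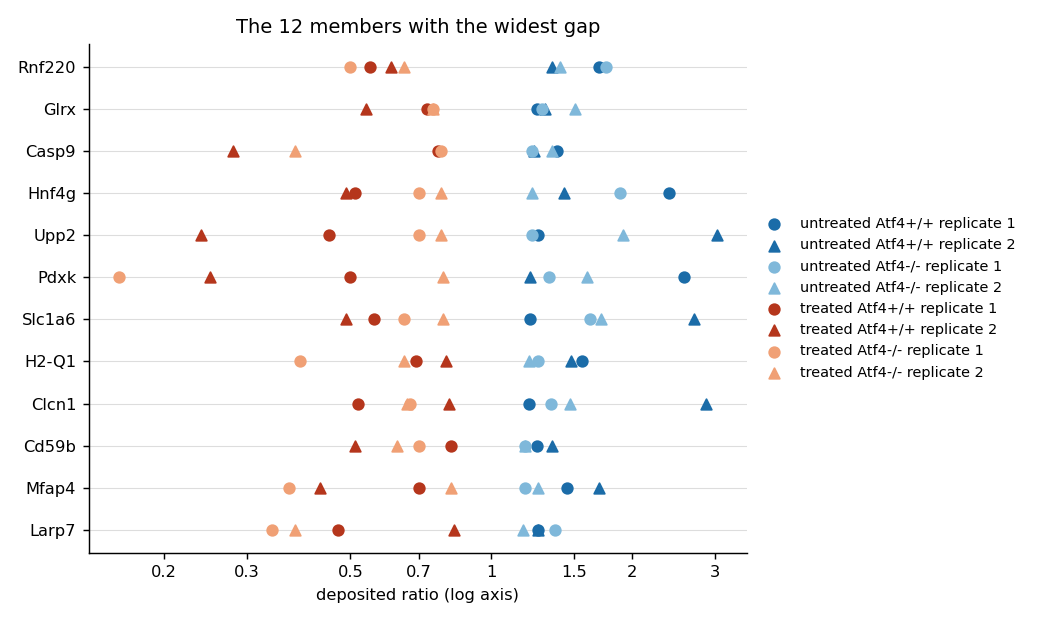
Deposited ratio on a log axis for the 12 members with the widest gap, one row per gene, with blue points for the 4 untreated and red or orange points for the 4 treated arrays and the symbol giving the replicate. In every row the blue points lie to the right of the others, for Rnf220 from 1.35 upwards against at most 0.65.

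The differences were moderate in size. Over the 100 members the ratio of the untreated to the treated mean ran from 1.27 to 3.95 with a median of 1.73. It was at least 2 in 28 members and at least 3 in 5, and under 1.5 in 23. On the log2 scale the median difference, treated minus untreated, was -0.73 over the members, from -1.86 to -0.31, and -0.03 over the 9425 probe sets.

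Roles were given to 72 of the 97 genes, from textbook knowledge and after their values were seen, with Rnf5 and Rnf145 each given 2. The remaining 25 genes, among them Casp9, S100a13, Tsx and Ubl5, were left without a role. Each group below is described by its pooled log2 difference, treated minus untreated.

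Lipid and sterol genes numbered 8, with 9 member probe sets and a median difference of -0.73. Dhcr7, which carries out the last step of cholesterol synthesis, read 1.58, 2.75, 1.33 and 1.13 untreated and 0.87, 0.37, 0.66 and 0.79 treated. Acly, which supplies cytosolic acetyl-CoA for fatty acid and sterol synthesis, read 1.23, 1.35, 1.11 and 1.20 untreated and 0.89, 0.61, 0.65 and 0.66 treated. The gap was wider for Dhcr7, which also spread more among the untreated arrays, with untreated Atf4+/+ replicate 2 the highest. St3gal5, the synthase of the ganglioside GM3, differed by -0.70 and Glb1, a lysosomal galactosidase, by -1.10. Sec14l2, a lipid-binding protein, differed by -0.72 and -0.63 in its 2 member probe sets. Erg28, a sterol synthesis protein known from yeast, differed by -0.82, Npc2, which carries cholesterol out of lysosomes, by -0.44, and Rnf145, a ubiquitin ligase of the endoplasmic reticulum, by -1.28.

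Small-molecule metabolism held 10 members, with a median difference of -0.74. Beside Glrx, Upp2 and Pdxk these included Acy3, an aminoacylase, with 1.14, 1.18, 1.16 and 1.35 untreated and 0.85, 0.55, 0.79 and 0.86 treated. Car5a, a carbonic anhydrase of liver mitochondria, differed by -0.90 and Mcee, an enzyme of propionate breakdown, by -0.61. Aldoc, Dctpp1, Inpp1 and Nudt1 completed the group, and in 9 of these 10 genes, all but Pdxk, treated Atf4+/+ replicate 2 was the lowest array. Transporters and channels gave 6 members with a median of -0.82, namely Slc1a6 and Clcn1, the folate carrier Slc46a1 with -0.64, the zinc importer Slc39a4 with -0.67, the potassium channel Kcna7 and the sodium pump regulator Fxyd1.

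Proteins of plasma and complement numbered 5, with a median of -0.78. Klkb1, plasma prekallikrein, read 1.12, 1.80, 1.35 and 1.25 untreated and 0.78, 0.48, 0.79 and 0.88 treated. C8g, the gamma chain of complement component C8, read 1.18, 1.08, 1.27 and 1.16 untreated and 0.90, 0.56, 0.90 and 0.92 treated, with all arrays but treated Atf4+/+ replicate 2 within a narrow band. Vwf, the endothelial clotting factor, differed by -0.49, and Cd59a by -0.78.

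Matrix and stromal signals made up 4 genes and 5 probe sets with a median of -1.18. Tnc, tenascin C, read 1.12, 1.34, 1.32 and 1.62 untreated and 0.22, 0.27, 0.26 and 0.88 treated, so that 3 of the 4 treated arrays lay far below the fourth. Cxcl12 read 1.37, 1.17, 1.96 and 1.12 untreated and 0.88, 0.25, 0.43 and 0.81 treated. Bgn, the proteoglycan biglycan, differed by only -0.31 and -0.47 in its 2 member probe sets, whose treated arrays were all between 0.87 and 0.93.

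Transcription factors and cofactors numbered 9, with a median of -0.92. After Hnf4g the widest gaps were those of the orphan receptor Esrrb at -1.06, the SRY-box factor Sox4 at -0.84 and the zinc finger factor Ikzf2 at -1.27. Cited2, a coactivator partner of CBP and p300, Tle5, a corepressor, Pias3, an inhibitor of STAT3, Sox18, a factor of endothelium, and Cbx5, a heterochromatin protein, differed by between -0.96 and -0.45. Growth signalling and cell cycle genes numbered 6, with a median of -0.83. Eif4ebp2 read 1.80, 1.35, 1.52 and 1.17 untreated and 0.79, 0.10, 0.83 and 0.80 treated in its first member probe set, and 1.55, 1.37, 1.39 and 1.16 untreated and 0.83, 0.48, 0.84 and 0.79 treated in its second. Treated Atf4+/+ replicate 2 stood apart in both. Ccnd2, a D-type cyclin, read 1.56, 3.12, 4.11 and 1.17 untreated and 0.84, 0.78, 0.63 and 0.58 treated, while its relative Ccnd3 differed by -0.50. Cdkn2a, a cell cycle inhibitor locus, read 2.94, 1.14, 1.31 and 4.96 untreated and 0.72, 0.86, 0.82 and 0.84 treated. Tsc2, which holds back mTORC1, differed by -0.42. Ghr, the growth hormone receptor, read 1.20, 1.09, 1.15 and 1.10 untreated and 0.89, 0.58, 0.91 and 0.90 treated, a narrow gap in both groups apart from the same low array.

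Ubiquitin pathway genes numbered 7, with a median of -0.81. After Rnf220 came Fbxo3, a substrate receptor of a ubiquitin ligase, with -0.65, Usp2, a deubiquitinase, with -0.96, and Znrf2, a membrane ubiquitin ligase, with -0.81. Genes of DNA and RNA handling numbered 5, with a median of -0.68, and beside Larp7 were Rnaseh2a, a subunit of ribonuclease H2, with -0.74, the clamp loader subunit Rfc5 with -0.56, the spliceosome protein Snrnp25 with -0.47, and the RNA helicase Mov10 with -0.68. Genes of junctions, adhesion and cytoskeleton numbered 8, with a median of -0.61, led by the actin-severing gelsolin gene Gsn at -0.88, the claudins Cldn11 at -1.03 and Cldn8 at -1.22, and the myosin Myo10 at -0.54. Genes of membrane traffic and the endoplasmic reticulum numbered 4, with a median of -0.56, namely Dpm3, a subunit of dolichol-phosphate mannose synthase, at -0.67, Vamp8 at -0.42, the membrane chaperone Bcap31 at -0.52 and the ubiquitin ligase Rnf5 at -0.61. H2-Q1 at -1.04 and H2-Oa, a class II gene of antigen presentation, at -0.94 were the remaining pair.

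The members did not take the same values on all treated arrays. The median ratio of the members was 1.24, 1.22, 1.23 and 1.18 on the untreated arrays and 0.84, 0.575, 0.79 and 0.84 on the treated ones. Treated Atf4+/+ replicate 2 was the lowest of the treated arrays in 64 of 100 members, against 33.8% of the 9425 probe sets. On that array the deposited ratio of the 5′ control probe set of Actb divided by that of the 3′ one gave a log2 value of -0.64. On the other arrays this lay between -0.19 and 0.14. Such a value bears on RNA integrity only relative to the other arrays, since each ratio is to the probe set's own median. The same value for Gapdh was -0.06 on treated Atf4+/+ replicate 2 and between -0.05 and 0.13 elsewhere. The part of RNA quality in the lower values was not tested. Without that array the median difference of the 100 members was -0.64, from -1.72 to -0.30.

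**Figure D2:**
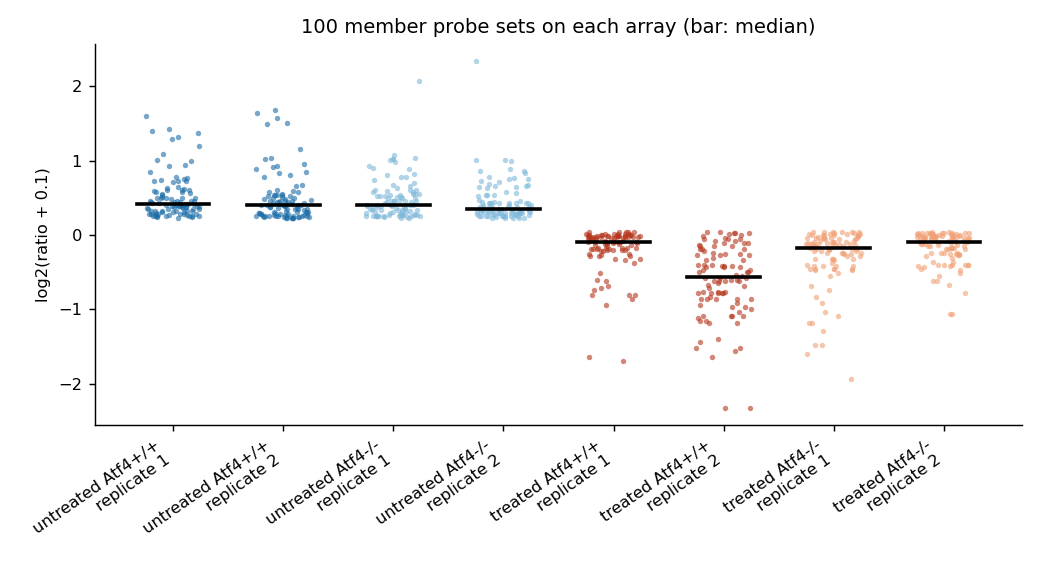
Log2(ratio + 0.1) of the 100 member probe sets on each of the 8 arrays, with points for probe sets and a black bar for their median. The untreated medians correspond to ratios of 1.18 to 1.24, and treated Atf4+/+ replicate 2 lies lowest with 0.575 against 0.79 to 0.84 for the other treated arrays.

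Genotypes were compared within each treatment by limma over all 12422 probe sets with adjustment by Benjamini and Hochberg. The rule did not use this contrast, but it used the same values and favours probe sets with little spread within a treatment, so nothing is read from a low count of members beside the share of all probe sets. In treated livers 0 members passed at an adjusted p under 0.05, as did 0% of all probe sets. At an unadjusted p under 0.05 there was 1 member, against 5.31% of all. In untreated livers 0 members passed, against 0% of all, and 3 had an unadjusted p under 0.05, against 5.32%. Pooled over treatment the counts were again 0 members, 0% of all, and 3 members against 5.10%. The difference between the genotypes in their response to AP20187 passed in 0 members and 0% of all probe sets, and its unadjusted p was under 0.05 in 0 members against 5.46% of all. The median SE over the members was 0.28 for the treated and the untreated comparison, against 0.32 over all probe sets, and 0.39 for the difference in response, against 0.46. A median log2 difference between genotypes, Atf4-/- minus Atf4+/+, of 0.15 was found over the members in treated livers, with 74 above 0, against 0.04 and 54.8% for all probe sets. The corresponding median in untreated livers was -0.04 with 40 members above 0, against -0.01 and 49.3%. For comparison, AP20187 pooled over genotype passed in 0.0403% of all probe sets, 5 that were all higher, and 11.3% had an unadjusted p under 0.05. Of the members 0 passed this comparison and 97 had an unadjusted p under 0.05, a count from which nothing is read because the rule used this contrast.

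Tsx, an X-linked gene known from testis, had the smallest p of the members in the treated and the pooled genotype comparisons. Its ratios were 1.24 and 1.13 in untreated Atf4+/+, 1.92 and 1.75 in untreated Atf4-/-, 0.42 and 0.45 in treated Atf4+/+ and 0.84 and 0.87 in treated Atf4-/-. Both Atf4-/- arrays were above both Atf4+/+ arrays at each treatment. The pooled log2 difference was 0.71 ± 0.14 (SE) with an adjusted p of 0.453 in limma, which did not pass. Pcp2, known from Purkinje cells, had a pooled difference of 0.68 ± 0.24 and an adjusted p of 0.916 in limma. In the opposite direction Gsn read 2.19 and 1.5 in untreated Atf4+/+ and 1.14 and 1.14 in untreated Atf4-/-, with a difference of -0.63 ± 0.24 and an adjusted p of 0.884 in limma. Esrrb read 2.03 and 2.14 against 1.16 and 1.13 in the same arrays, with a difference of -0.81 ± 0.26 and an adjusted p of 0.821 in limma. Among the treated arrays, Larp7 had the smallest p of those lower in Atf4-/-, with 0.47 and 0.83 against 0.34 and 0.38 and a difference of -0.66 ± 0.28 (adjusted p = 0.948 in limma).

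The lower values of the members were present in both genotypes by construction, and their size by genotype rested on 1 array. The median log2 difference, treated minus untreated, was -0.86 in Atf4+/+ and -0.60 in Atf4-/-, and 72 of 100 members were lower by more in Atf4+/+, against 53.4% of all probe sets. Taken alone against the untreated Atf4+/+ mean, treated Atf4+/+ replicate 1 gave a median of -0.57 and was below the Atf4-/- difference in 49 members. Replicate 2 alone gave -1.01 and was below it in 78. The median difference in response, Atf4-/- minus Atf4+/+, was 0.25 over the members and 0.04 over all probe sets. It was -0.01, with 49 members above 0, without treated Atf4+/+ replicate 2 and 0.44 without replicate 1. Likewise the median genotype difference in treated livers was -0.05 without replicate 2 and 0.39 without replicate 1. In the latter case 22 members had an unadjusted p under 0.05 in limma in the treated comparison, against 9.82% of all probe sets in that fit. The pooled comparison gave 12, against 7.46%, and the difference in response 13, against 8.61%, and 0 members passed after adjustment.

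**Figure D3:**
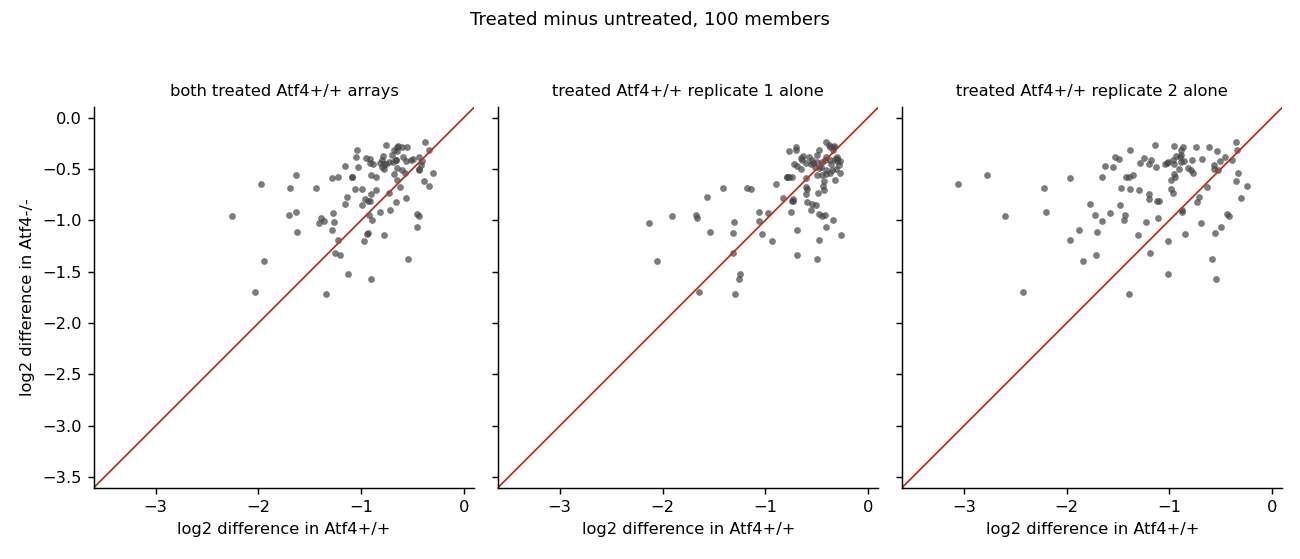
Log2 difference, treated minus untreated, of the 100 members in Atf4-/- (vertical) against Atf4+/+ (horizontal), computed with both treated Atf4+/+ arrays, with replicate 1 alone and with replicate 2 alone, and a red line of equality. Points left of the line are lower by more in Atf4+/+, which holds for 72 members with both arrays, 49 with replicate 1 and 78 with replicate 2.

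Among members lower by more in Atf4+/+, Esrrb had the smallest p for the difference in response, 0.76 ± 0.37 (SE, adjusted p = 0.933 in limma). Next by p came Upp2, with -2.25 in Atf4+/+ and -0.96 in Atf4-/- and a difference of 1.30 ± 0.66, then Mov10 with 0.72 ± 0.39, Dhcr7 with 1.01 ± 0.59 and Hnf4g with 0.76 ± 0.45. In the other direction Usp2, Larp7, Fam102a, St3gal5 and Ngef were lower by more in Atf4-/-, with differences of between -0.84 and -0.48. None of these 10 passed in limma.

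Further probe sets give a look at the same genes through other probes on the same arrays, and so are no independent replicate. Of the 97 genes, 36 had 51 further probe sets, of which 39 were lower on the mean and 12 higher. Every treated array was below every untreated one in 11 of them. Beside these counts, 54.7% of all genes were lower on the mean and 4.18% of the 9425 probe sets were lower without overlap. Their median log2 difference was -0.33, against -0.81 for the member probe sets of the same genes. In 28 of the 36 genes no further probe set was without overlap, in Casp9 and Znrf2 some were, and in Cxcl12, Eif4ebp2, Ghr, S100a13, Ubl5 and Vamp8 all were. Both probe sets of Bgn and of Sec14l2 were themselves members. The further probe set of Ghr read 1.16, 1.06, 1.29 and 1.16 untreated and 0.94, 0.65, 0.86 and 0.93 treated, close to the member probe set.

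The 3 further probe sets of S100a13 differed by -0.78, -0.32 and -1.13, and its member probe set by -1.10. Both further probe sets of Cxcl12 differed less than the member, by -0.70 and -0.68 against -1.21. By contrast, the second probe set of Rnf220 read 0.84, 1.14, 0.98 and 0.92 untreated and 1.03, 1.18, 1.02 and 0.95 treated, a difference of 0.10 against -1.28 in the member. Its groups overlapped, so the widest gap of all was seen by 1 of the gene's 2 probe sets. Both other probe sets of Larp7 were higher on the mean, by 0.10 and 0.48, and the other Vwf probe set by 0.68. The others with the opposite sign were single probe sets of C8g, Casp9, Itgb1bp1, Rfc5, S100a1 and Tsc2 and a pair for Fbxo3.

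**Figure D4:**
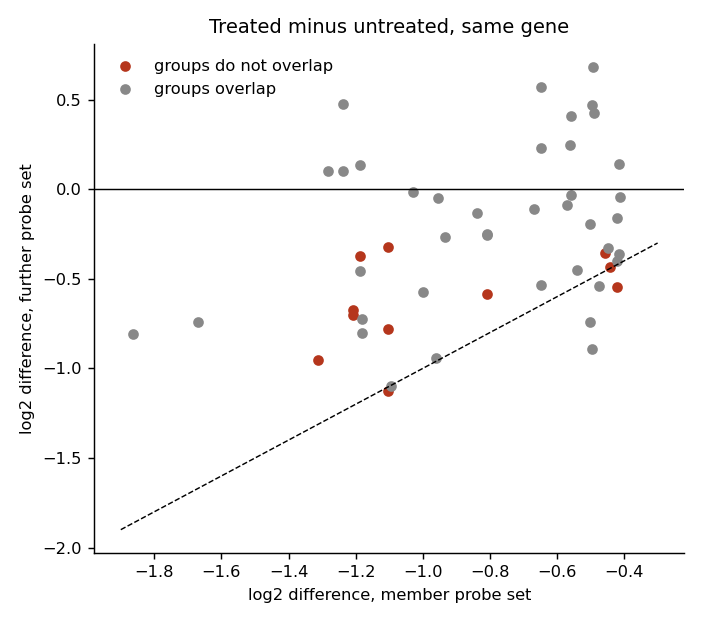
Log2 difference, treated minus untreated, of the 51 further probe sets (vertical) against the member probe set of the same gene (horizontal), with the dashed line of equality and red points where all treated arrays were below all untreated ones. Of the points, 39 lie below 0 and 11 are red, beside 54.7% of all genes lower on the mean and 4.18% of the 9425 probe sets lower without overlap.

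The types of probe set differed little between members and the rest. Plain probe sets were 80 of 100 members and 80.4% of the 9425, those sharing probes within a gene family (f) were 9 of 100 and 7.66%, and those cross-matching similar transcripts (s) were 5 and 2.69%. The rest were 4 of a type with relaxed probe rules (r), 5.97% of the 9425, 1 of type g and 1 of type i. Identifiers of 99 of the 100 members matched the RefSeq gene table.

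The pathways around the members were read from gene lists, each gene by 1 probe set. Over all 8251 genes, 54.7% were lower on the mean and 4.19% were lower without overlap, with a median log2 difference of -0.04. Higher without overlap were 392 of the 8251. In sterol synthesis 15 of 16 genes were lower on the mean, 4 without overlap, with a median of -0.68. These were the member Dhcr7 and, outside the 100, Idi1, Ebp and Nsdhl at -1.16, -0.44 and -0.75. The mean log2 value of the list was 1.21 on untreated Atf4+/+ replicate 2, whose Atf4 ratio goes against its label, and 0.30, 0.06 and 0.31 on the other untreated arrays, and on the treated arrays it was -0.02, -0.68, -0.06 and 0.02. The median difference of the list was -0.38 without untreated Atf4+/+ replicate 2, -0.48 without treated Atf4+/+ replicate 2 and -0.21 without both, with 13 of 16 genes then lower. In fatty acid and triglyceride synthesis 12 of 14 were lower, 2 without overlap (Acly and Thrsp), with a median of -0.55, and of -0.58 without the same 2 arrays. In insulin and growth hormone signalling 12 of 20 were lower, 4 without overlap. These were Ghr, its signal transducer Stat5b at -0.76, the IGF carrier subunit Igfals at -0.51 and Igf1 at -0.24. Ghr was read here by its further probe set at -0.43, which is not a member. The median of that list was -0.19, and 1 of its genes, Igfbp1 at 2.08, was higher without overlap.

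Coagulation and complement held 2 members, Klkb1 and C8g, and 22 of 31 genes lower on the mean, 4 without overlap, with a median of -0.15. Higher without overlap were 3 of its genes, Fgb, Fgg and C4bp. Among hepatic transcription factors 15 of 28 were lower, 2 without overlap, Hnf4g and Esrra, and the median was -0.01. In this list 3 genes, Cebpb, Cebpg and Foxa3, were higher without overlap. Without treated Atf4+/+ replicate 2 the medians of these 2 lists were -0.06 and 0.10. Without both untreated replicate 2 arrays they were -0.31 and -0.08. Lower without overlap were then 19 and 4 of their genes, against 1024 of all 8251, though with fewer arrays non-overlap is easier. Some lists held no member although most of their genes were lower on the mean. In 2 of them the names left out by the rule bear on this. Apoa2, of the apolipoprotein list, would have been a member. The bile acid list held Cyp7a1, Cyp7b1 and Cyp8b1, which could not be members, though none of these was lower without overlap. The respiratory chain had 26 of 29 lower and 4 without overlap, phase 2 conjugation 26 of 27 and 1, urea cycle and amino acid breakdown 20 of 26 and 0, fatty acid oxidation 18 of 22 and 2, apolipoproteins and carriers 21 of 26 and 2, the peroxisome 15 of 18 and 0, bile acid genes 10 of 12 and 1, and glucose and glycogen 10 of 11 and 0. The list called phase 2 conjugation also held oxidases, hydrolases and esterases such as Fmo1, Aox1, Ephx1 and Ces1d. Its 1 gene lower without overlap was Fmo1, which is not a conjugating enzyme. Higher without overlap was 1 gene each in the urea cycle, peroxisome and bile acid lists, and 0 in the rest of these lists. In all 8 of these lists treated Atf4+/+ replicate 2, the array with the low Actb value, had the lowest mean of the treated arrays. In the respiratory chain the mean log2 value was -0.34 on that array against 0.13, -0.01 and 0.19 on the others. Without it the numbers of genes lower on the mean were, in the same order, 22, 20, 18, 17, 19, 10, 6 and 6. Their median differences were then between -0.19 and -0.02, against -0.03 over all genes. Without both untreated replicate 2 arrays instead, the numbers lower on the mean were 26, 25, 19, 16, 24, 12, 10 and 9. Those lower without overlap were then 12, 7, 6, 3, 8, 1, 2 and 1. Targets of the integrated stress response held no member, with 3 of 21 lower and 9 higher without overlap.

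**Figure D5:**
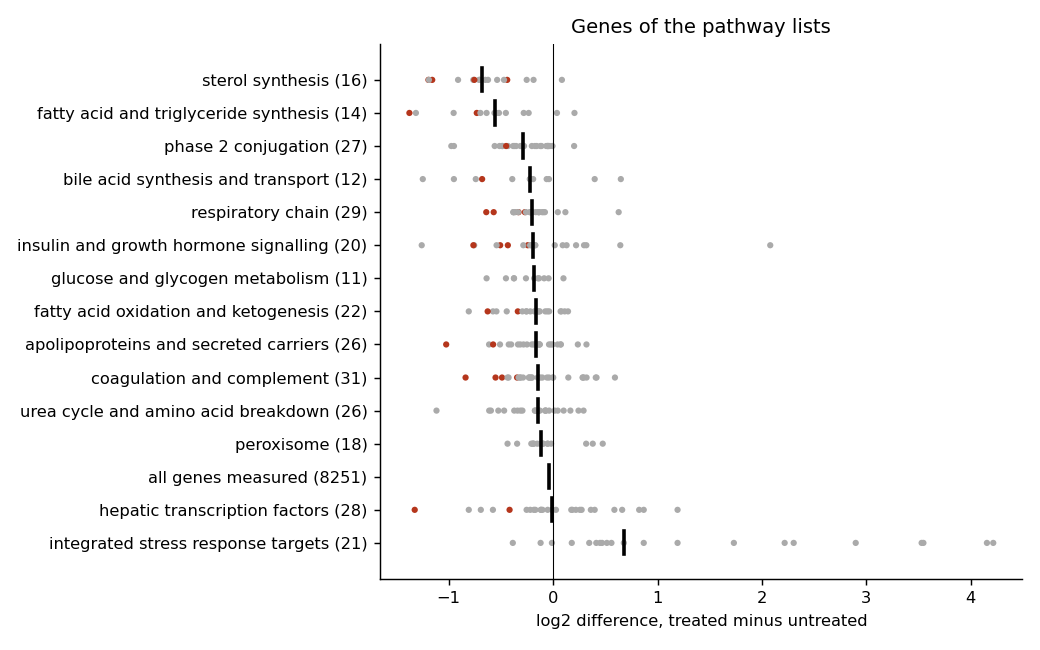
Log2 difference, treated minus untreated, of each gene of the pathway lists, with the number of genes in brackets, a black bar for the median and red points for genes lower without overlap. The bar of all 8251 genes, drawn without points, lies at -0.04, that of sterol synthesis at -0.68 and that of stress response targets at 0.68.

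Markers of liver cell types were summed per array to set beside the members. Hepatocyte markers were lower on the mean in 8 of 11 genes, 2 of them, Ttr and Serpina1c, without overlap, with sums of 10.2 to 13.2 untreated and 8.92 to 11.7 treated. Beside Vwf, 5 of the other 8 endothelial markers were lower on the mean and 0 without overlap, and the sums of all 9 were 8.10 to 11.8 untreated and 7.46 to 9.76 treated. Beside the matrix members, stellate cell and fibroblast markers were lower in 5 of 9, 0 without overlap, with sums of 8.35 to 11.3 and 7.42 to 10.7. Sums over macrophage markers were 9.05 to 15.2 and 10.5 to 11.7, with 6 of 11 lower, and those over T or NK cell markers 7.83 to 11.8 and 6.52 to 8.28, with 6 of 9 lower. In each of these lists the sums of the treatments overlapped. For cholangiocytes 2 of 4 markers were lower on the mean, for B or plasma cells 4 of 6, for neutrophils 4 of 8, for red cell precursors 3 of 5, for adipocytes 2 of 4 and for exocrine pancreas 3 of 4, each with 0 without overlap. Without both untreated replicate 2 arrays, 7 of 9 endothelial markers were lower and 4 without overlap, against 1024 of all 8251 genes. Lower without overlap were then 2 of 9 stellate, 2 of 5 red cell, 2 of 11 hepatocyte, 1 of 11 macrophage and 1 of 9 T or NK cell markers. In the other marker lists there were 0. Fewer arrays make non-overlap easier. The part of cell composition in the members' lower values was not tested.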

How the data were processed

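The authors deposited a table of linear ratios with a step of 0.01, in which the median of most rows over the 8 arrays is 1. Their summarisation, scaling and divisor are not given in the sources used here. Signal over background cannot be had from ratios, and precision is limited by the number of arrays. Groups were taken from source names, and from the description where that alone gives the treatment. The members and gene lists were chosen with earlier results of these data known. Values were log2(ratio + 0.1), so that differences of low ratios are understated. Without the 66 control probe sets, 12422 were fitted in limma 3.58.1 (R 4.3.3) as 4 group means over the 8 arrays, with eBayes (4 residual and 2.37 prior degrees of freedom) and Benjamini-Hochberg adjustment at 0.05. The test was also run on simulated data with known differences. Of the 12422 probe sets 10833 had 1 gene, 396 several and 1193 none. Ties in score were broken by probe set name. Named were the 12 widest gaps, the 3 on either side of position 100, up to 4 members of each list or role, the 5 smallest p in each direction of each genotype comparison, and members with a further probe set of opposite sign, and the others were named after their values were seen. Promoter sequences came from RefSeq. Figures were drawn with matplotlib 3.10.9 in Python 3.11.15. Alternatives were other pseudocounts, normalizations, filters, moderation, array weights, and each array left out in turn. Further, untreated Atf4-/- replicate 1 was grouped by its description, and both untreated replicate 2 arrays were left out. An exchange of the genotypes of those 2 arrays was not tried.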

Additional observations from a re-analysis of the deposited data

Results flagged for a closer look

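Glrx on treated Atf4+/+ replicate 2, with a ratio of 0.54 against 0.73, 0.75 and 0.75 on the other treated arrays, lay far from its group: the gap to the nearest array on the log2 scale was 0.916 of the range of the 4, above Dixon's critical value for a group of this size. This was 1 of 26 groups of 4 arrays examined, of which chance flags about 1 in 20. The array had the lowest log2 value of the 5′ over the 3′ deposited Actb ratio, -0.64, and its part in the value was not tested.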

How the results depend on the processing

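When the 100 widest gaps were chosen again without 1 array, 58 to 66 of the members were among them, and with both untreated replicate 2 arrays left out, whose Atf4 ratios went against their labels, 38 were. The number of probe sets lower without overlap, 394, became 518 to 713 without 1 array and 1182 without both. Fewer arrays make non-overlap easier by construction. The alternatives that changed pseudocount, centring, normalization, row median or ties kept 90 to 100 members. In the genotype comparisons 0 members passed under each of the 17 alternatives. The difference in response passed in 2 probe sets, Dpt and Mrvi1, neither a member, when only probe sets with a row median of at least 0.99 were fitted, against 0 in all. Of 680 values of the 40 named member differences, 679 kept their sign and side of the threshold. The exception was Usp2, whose genotype difference in treated livers was -0.54, and 0.18 and -1.26 without treated Atf4-/- replicates 1 and 2, of which the first was low. Little can be read from the 679, since the 40 were picked as the smallest p in each direction and did not pass. The members' median genotype difference in treated livers and their difference in response rested on treated Atf4+/+ replicate 2, as given above. Leaving out both untreated replicate 2 arrays when choosing members, and arrays from the gene and marker lists, was decided after seeing the data. No paired analysis was possible because the labels give no shared replicate numbers. With 2 arrays a group, ratios in place of intensities and no detection calls, dim probe sets could not be told from bright ones.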
